A study of Mus musculus with 12 samples.

Results

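The 37 genes described here mark the endothelium of brain vessels or build the blood-brain barrier, and they were followed in the hippocampus of mice exposed to a mixture of chemicals met in the Gulf War. They were taken by symbol from a table of 41743 genes, in which each of the 37 was found once. Brain endothelial cells line the capillaries, seal the gaps between themselves with tight junctions and import glucose, hormones and lipids through dedicated carriers while efflux pumps return drugs and toxins to the blood. VEGF and angiopoietin receptors keep these cells alive and quiescent, and ETS and SOX transcription factors hold their identity. Several of the 37 genes are also transcribed in other brain cells, among them Bsg, Tjp1, Tfrc, Ocln, Podxl and Slco1c1.

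Toxicant mice were male C57Bl/6 animals, 12 weeks old, that were injected under the skin on weekdays for 2 weeks with a mixture of pyridostigmine bromide at 2.5 mg/kg, a reversible cholinesterase inhibitor, chlorpyrifos at 12.5 mg/kg, an organophosphate insecticide, and the insect repellent DEET at 7.5 mg/kg. Control mice were males of the same strain and age that received vehicle, whose composition the labels do not give. Each group has 6 samples from different animals, and hippocampi were taken when dosing ended. The question is which hippocampal transcripts differ between exposed and vehicle-treated mice. Polyadenylated RNA was sequenced as single reads of 75 bases, and the deposited unit is RPKM, reads per gene divided by exon length and by the reads of the library. Control 4 and control 5 had the same value in each gene of the table and were counted once, as control 4-5, which left 6 toxicant and 5 control libraries. Below, control values stand in the order control 1, 2, 3, 4-5 and 6.

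The reads behind the RPKM scale numbered 21.5 M to 28.4 M in toxicant and 25.0 M to 34.9 M in control libraries. The share of them that lay on annotated genes, called gene share below, was 76.8% to 83.8% in toxicant and 78.4% to 89.5% in control libraries, with control 2 (78.4%) and control 4-5 (83.1%) the lowest of the controls. The 6 neuron markers summed to 545 to 663 RPKM in toxicant and 595 to 666 RPKM in control libraries, so neural tissue was present throughout. Of the 37 endothelial and barrier genes, 36 reached a mean of 0.5 RPKM over the 11 libraries and were tested. They ran from Emcn at 0.501 RPKM and 72.8 reads per library to Bsg at 157 RPKM and 7665 reads. The other, Icam2, an adhesion molecule of endothelial junctions, lay just under that limit at 0.458 RPKM and 23.5 reads per library, with 0.426 ± 0.0901 RPKM in toxicant and 0.496 ± 0.0861 RPKM in control libraries (SD). The counts below are over the 36 tested genes.

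Every tested junction, receptor and surface gene of the endothelium except Tjp1 had a negative log2 fold change (toxicant over control), as did 70.0% of all tested genes. None of the 36 genes passed limma at an adjusted p under 0.05, where the share of all 13493 tested genes was 0%, and the smallest adjusted p among the 36 was 0.153. At an unadjusted p under 0.05, 18 of the 36 were lower (50.0%), against 17.0% of all tested genes, and 0 were higher, against 3.33% of all tested genes. For 9 of the 36 (25.0%) every toxicant library lay below every control library, against 2.03% of all tested genes. The median log2 fold change of the 36 was -0.20, and that of all tested genes was -0.11. Of the 36 genes 27 lay below the all-gene median. In bulk tissue, fewer endothelial cells and less RNA per cell cannot be told apart.

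**Figure D1:**
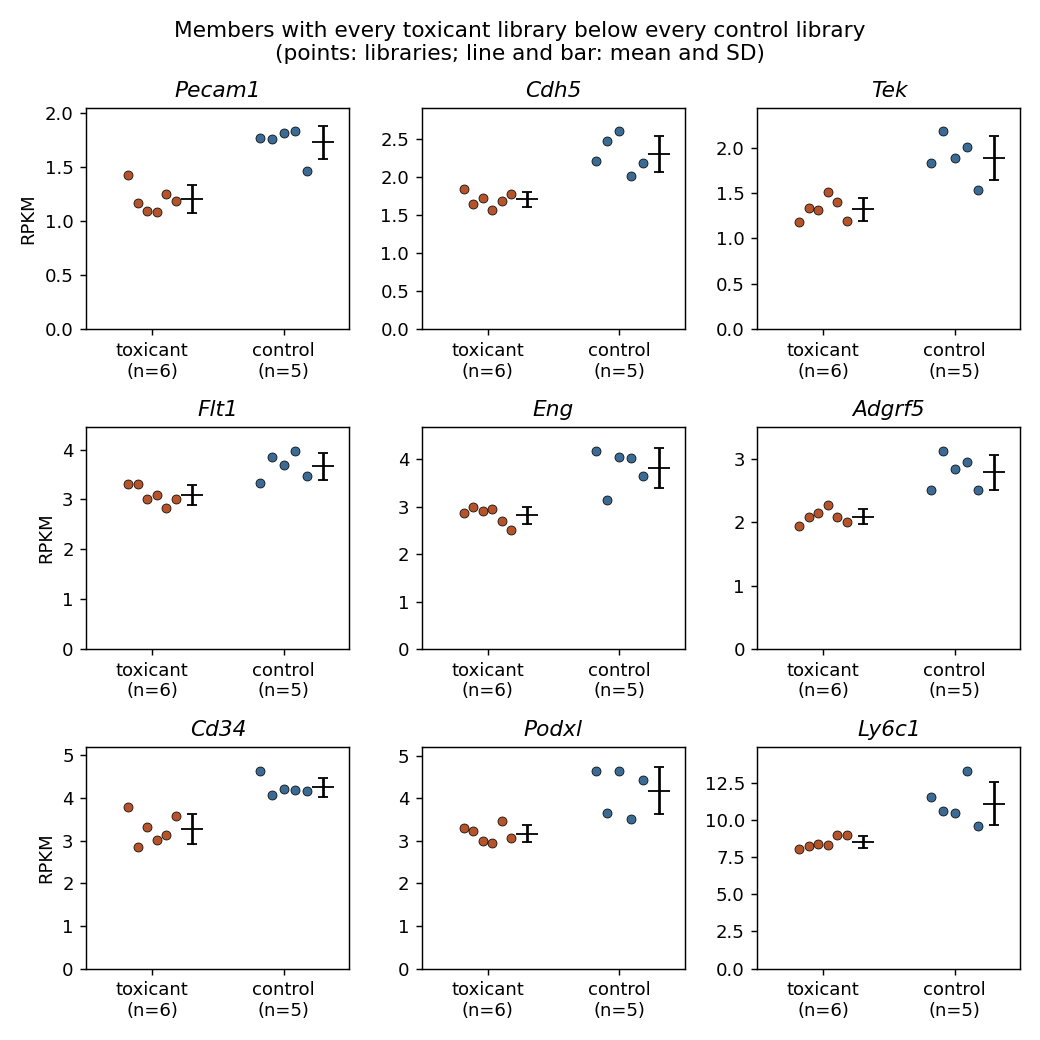
RPKM of the 9 genes whose toxicant and control libraries did not overlap, with 1 point per library, toxicant (n = 6) to the left of control (n = 5), and the mean and SD beside the points. Every axis starts at 0, and the gap between the groups is narrowest for Flt1, whose highest toxicant library was at 3.31 RPKM and whose lowest control was at 3.33 RPKM.

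These counts depend on how libraries are scaled. After median-ratio scaling, which moved the all-gene median to 0.0014, 8 of the 36 were lower at an unadjusted p under 0.05, against 5.14% of all genes, and 2 did not overlap, against 0.697%. With gene share as a covariate 19 were lower, against 9.13% of all genes. The median of the 36 was then -0.22 and that of all genes -0.034. After quantile normalization 16 were lower, against 8.69% of all genes, and 2 did not overlap, against 1.10%. Without control 2, limma called 16 of the 35 genes then tested (45.7%), all of them lower. Over all 13468 genes of that fit it called 36.6% in either direction, 3779 lower and 1153 higher. At an unadjusted p under 0.05, 22 of the 35 were then lower, against 40.0% of all genes, and 1 was higher, against 12.8%.

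Among the genes of junctions and adhesion, 6 of 7 tested members were lower at an unadjusted p under 0.05, where 17.0% of all genes were. The median log2 fold change of the 7 was -0.29. Pecam1, an adhesion molecule at endothelial contacts, ran from 1.09 to 1.43 RPKM with a median of 1.18 in toxicant libraries, against 1.77, 1.75, 1.81, 1.83 and 1.47 RPKM in control libraries. The groups did not overlap, and the lowest control was control 6. Its log2 fold change was -0.39 ± 0.079 (SE, adjusted p = 0.153 by limma), and -0.36 with gene share as a covariate. Cdh5, the cadherin of endothelial adherens junctions, ran from 1.57 to 1.85 RPKM with a median of 1.71 in toxicant libraries, against 2.22, 2.47, 2.60, 2.02 and 2.19 RPKM in control libraries. Again the groups were apart, and the log2 fold change was -0.34 ± 0.073 (adjusted p = 0.156 by limma), or -0.31 with the covariate. Cldn5, the main claudin of barrier tight junctions, spanned 12.1 to 17.8 RPKM with a median of 14.7 in toxicant libraries, against 20.3, 15.8, 19.7, 18.2 and 17.0 RPKM in control libraries. Toxicant 1 lay within the control range and the other 5 toxicant libraries below it, and the log2 fold change was -0.31 ± 0.10 (adjusted p = 0.214 by limma), or -0.17 with the covariate.

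Ocln, a second transmembrane protein of tight junctions, was at 2.00 ± 0.301 RPKM in toxicant and 2.57 ± 0.433 RPKM in control libraries (SD), a log2 fold change of -0.29 ± 0.11 (adjusted p = 0.223 by limma). Lsr, a protein of contacts between 3 cells, was at 1.35 ± 0.251 RPKM in toxicant and 1.76 ± 0.261 RPKM in control libraries, but 43.6% of its exon bases lie opposite the antisense gene Gm4673, which was at 1.36 to 2.12 RPKM in toxicant and 1.39 to 2.21 RPKM in control libraries. Since the counting is not stated to use strand, reads of Lsr and Gm4673 cannot be told apart within that overlap. Esam, an endothelial adhesion molecule, was at 2.38 ± 0.143 RPKM in toxicant and 2.79 ± 0.377 RPKM in control libraries and had a log2 fold change of -0.19 ± 0.083 (adjusted p = 0.242 by limma). Tjp1, the scaffold protein under tight junctions of many cell types, ran from 6.80 to 8.03 RPKM with a median of 7.64 in toxicant libraries, against 5.59, 9.42, 7.31, 8.95 and 6.79 RPKM in control libraries. The toxicant libraries lay inside the control range, with control 2 and control 4-5 highest and control 1 lowest. Its log2 fold change of 0.012 ± 0.12 (adjusted p = 0.945 by limma) became -0.20 with the covariate.

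Of the 9 receptor genes, 5 were lower at an unadjusted p under 0.05, where 17.0% of all genes were. For 4 of these all toxicant libraries lay below the controls, as for 2.03% of all genes. The median log2 fold change of the 9 was -0.22. Tek, the receptor of angiopoietins, ran from 1.18 to 1.51 RPKM with a median of 1.32 in toxicant libraries, against 1.83, 2.18, 1.89, 2.00 and 1.53 RPKM in control libraries. The highest toxicant library, toxicant 4, came close to control 6, and the log2 fold change was -0.39 ± 0.085 (SE, adjusted p = 0.156 by limma), or -0.50 with gene share as a covariate (adjusted p = 0.0998 by limma). Eng, a co-receptor of TGF-beta family ligands, spanned 2.51 to 3.00 RPKM with a median of 2.88 in toxicant libraries, against 4.18, 3.14, 4.06, 4.03 and 3.66 RPKM in control libraries. No toxicant library reached the lowest control, control 2, and the log2 fold change was -0.37 ± 0.079 (adjusted p = 0.153 by limma), or -0.32 with the covariate. Adgrf5, an adhesion G protein-coupled receptor of endothelium, ran from 1.94 to 2.27 RPKM with a median of 2.08 in toxicant libraries, against 2.50, 3.12, 2.84, 2.95 and 2.51 RPKM in control libraries. No overlap was seen here either, with a log2 fold change of -0.34 ± 0.072 (adjusted p = 0.153 by limma), and of -0.44 with the covariate (adjusted p = 0.0998 by limma).

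The 2 VEGF receptors had similar log2 fold changes on the scale used here, which understates the change of low genes, but different spreads. With a smaller constant of 0.1 added to RPKM before taking logs, the log2 fold changes were -0.24 for Flt1 and -0.32 for Kdr. Flt1, which binds VEGF-A as a decoy, was at 3.09 ± 0.192 RPKM in toxicant and 3.66 ± 0.265 RPKM in control libraries (SD), with no overlap and a log2 fold change of -0.21 ± 0.068 (adjusted p = 0.207 by limma). With gene share as a covariate the log2 fold change of Flt1 was -0.27. Kdr, the main signalling receptor for VEGF-A, was at 0.839 ± 0.151 RPKM in toxicant and 1.08 ± 0.217 RPKM in control libraries, and with toxicant 3, 5 and 6 below every control its log2 fold change was -0.23 ± 0.11 (adjusted p = 0.250 by limma). Tie1, the orphan partner of Tek, was at 1.38 ± 0.140 RPKM in toxicant and 1.66 ± 0.260 RPKM in control libraries (-0.19 ± 0.092), and Robo4, an endothelial roundabout receptor, was at 0.569 ± 0.0568 RPKM in toxicant and 0.747 ± 0.0962 RPKM in control libraries (-0.22 ± 0.084). Ptprb, the phosphatase that restrains Tek, was at 1.90 ± 0.131 RPKM in toxicant and 2.21 ± 0.579 RPKM in control libraries, and Adgrl4, a latrophilin-like endothelial receptor, was at 1.60 ± 0.229 RPKM in toxicant and 1.67 ± 0.644 RPKM in control libraries. For both, control 2 and control 4-5 held the 2 highest values and control 1 the lowest, and the log2 fold changes of -0.15 ± 0.12 and -0.0034 ± 0.16 became -0.34 and -0.27 with the covariate.

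**Figure D2:**
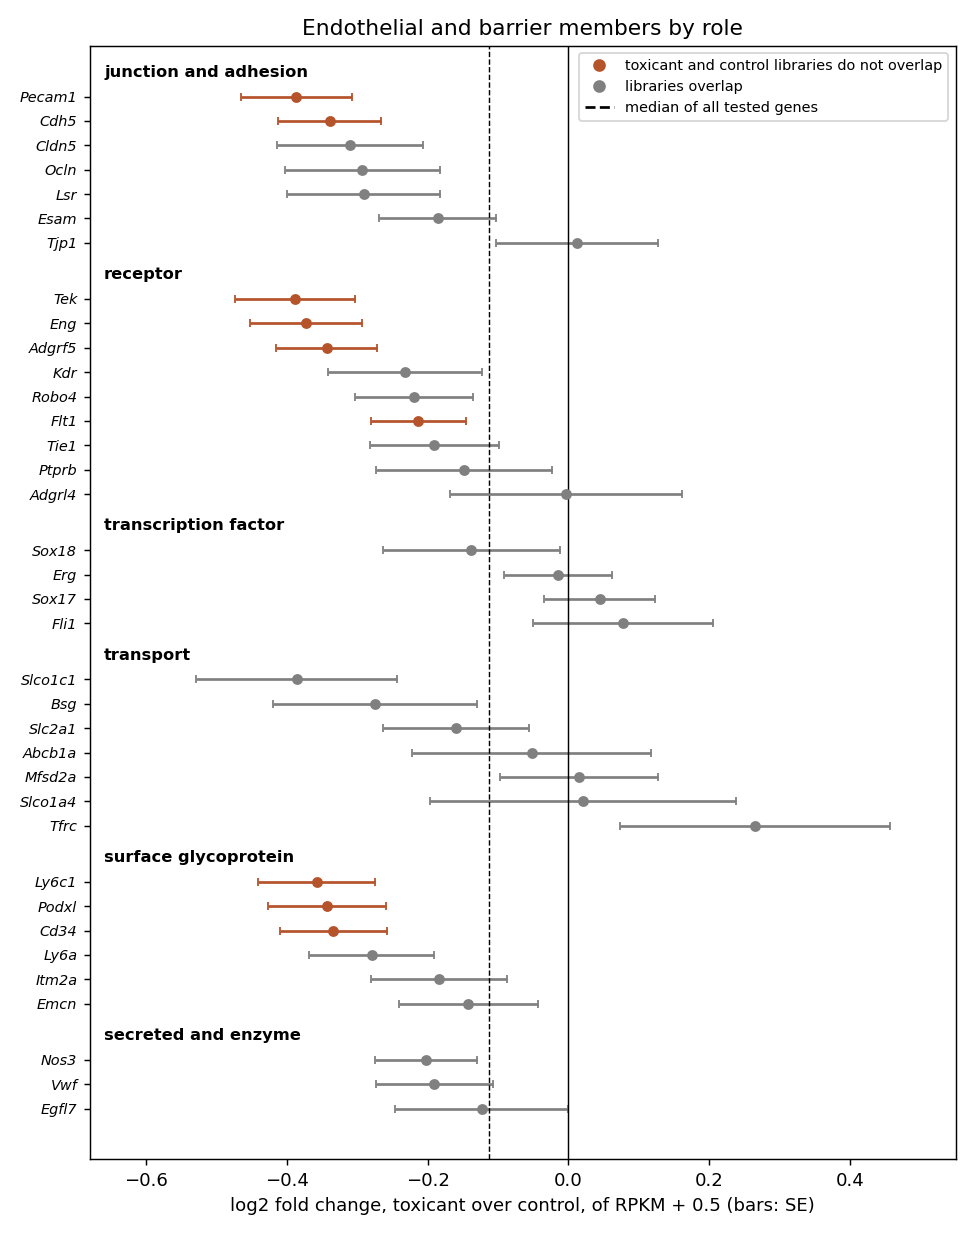
Log2 fold change of RPKM + 0.5, toxicant over control, of the 36 tested genes by role, with SE bars, colour for the 9 genes without overlap, and a dashed line at the all-gene median of -0.11. Receptor, junction and surface genes lie mostly left of the dashed line, and 3 of the 4 transcription factors (all but Sox18) and 4 of the 7 transport genes right of it.

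Of the 4 transcription factors 0 were lower at an unadjusted p under 0.05, where 17.0% of all genes were, so so few genes show little. Their median log2 fold change was 0.015, against -0.11 for all genes. Differences between roles were not tested. Sox18, a SOX factor of endothelial differentiation, ran from 2.58 to 3.86 RPKM with a median of 3.50 in toxicant libraries, against 4.49, 3.22, 4.26, 3.02 and 3.47 RPKM in control libraries. The groups overlapped, and the log2 fold change of -0.14 ± 0.13 (adjusted p = 0.447 by limma) was 0.041 with gene share as a covariate. Sox17, its relative in arterial endothelium, spanned 1.05 to 1.30 RPKM with a median of 1.13 in toxicant libraries, against 1.18, 1.21, 1.01, 1.18 and 0.944 RPKM in control libraries. Toxicant 6 was the highest of all 11 libraries and control 6 the lowest, with a log2 fold change of 0.045 ± 0.079 (adjusted p = 0.691 by limma). Fli1, an ETS factor that blood and microglial cells also express, ran from 0.775 to 1.19 RPKM with a median of 1.01 in toxicant libraries, against 0.628, 0.935, 1.07, 1.26 and 0.675 RPKM in control libraries. Its control libraries enclosed all toxicant libraries, and the log2 fold change was 0.077 ± 0.13 (adjusted p = 0.670 by limma). Erg, the ETS factor most typical of endothelium, was at 0.855 ± 0.0841 RPKM in toxicant and 0.868 ± 0.0662 RPKM in control libraries (SD), a log2 fold change of -0.015 ± 0.077 (adjusted p = 0.897 by limma). The sign for Erg turned under median-ratio scaling (0.068) and with the GC trend removed (0.14).

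Of the 7 transport genes, 1 (Slco1c1) was lower at an unadjusted p under 0.05, where 17.0% of all genes were. Positive log2 fold changes were seen for 3, while 70.0% of all tested genes had negative ones. With gene share as a covariate 3 were lower at an unadjusted p under 0.05 (Slco1c1, Slco1a4 and Abcb1a), where 9.13% of all genes were. Slco1c1, a carrier of thyroid hormone at the barrier and in astrocytes, ran from 4.60 to 7.54 RPKM with a median of 4.99 in toxicant libraries, against 6.12, 6.53, 10.1, 7.22 and 6.28 RPKM in control libraries. Toxicant 2 lay among the controls and the other 5 below them, with control 3 far above the rest. Toxicant 2 and control 3 also had the highest choroid plexus marker sums of their groups, 1952 and 3059 RPKM. The log2 fold change of Slco1c1 was -0.39 ± 0.14 (SE, adjusted p = 0.221 by limma). Bsg, a chaperone of monocarboxylate carriers, spanned 119 to 153 RPKM with a median of 146 in toxicant libraries, against 199.8, 122, 227, 153 and 174 RPKM in control libraries. Control 2 was the lowest of the controls and below all but 1 toxicant library, and the log2 fold change of -0.27 ± 0.15 (adjusted p = 0.267 by limma) was -0.0013 with gene share as a covariate. Slc2a1, the glucose transporter of the barrier, ran from 17.3 to 21.5 RPKM with a median of 18.3 in toxicant libraries, against 24.6, 16.4, 23.1, 21.5 and 20.8 RPKM in control libraries. Control 2 was the lowest library of all, with a log2 fold change of -0.16 ± 0.10 (adjusted p = 0.319 by limma) that was 0.0052 with the covariate.

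Abcb1a, the efflux pump P-glycoprotein, ran from 2.39 to 3.13 RPKM with a median of 2.94 in toxicant libraries, against 1.98, 4.13, 2.91, 4.53 and 2.19 RPKM in control libraries. The toxicant libraries lay inside the control range, with control 2 and control 4-5 above every other library and control 1 lowest. The log2 fold change of -0.053 ± 0.17 (adjusted p = 0.831 by limma) was -0.36 with the covariate. Of the stretches of 75 bases in Abcb1a transcripts, 11.9% also occur in its paralog Abcb1b, which was at 0.268 to 0.401 RPKM in toxicant and 0.251 to 0.506 RPKM in control libraries. Slco1a4, an organic anion carrier, ran from 2.69 to 4.76 RPKM with a median of 3.84 in toxicant libraries, against 2.16, 5.87, 3.47, 5.65 and 2.85 RPKM in control libraries. Here too control 2 and control 4-5 were above every other library and control 1 was lowest. Its log2 fold change of 0.021 ± 0.22 (adjusted p = 0.948 by limma) became -0.43 with the covariate. Tfrc, the transferrin receptor that brings iron across the barrier and into neurons, spanned 9.03 to 13.8 RPKM with a median of 12.6 in toxicant libraries, against 6.94, 14.8, 7.87, 14.4 and 8.47 RPKM in control libraries. Control 2 and control 4-5 were again the highest controls, and the log2 fold change of 0.27 ± 0.19 (adjusted p = 0.358 by limma), the highest of the 36, was -0.11 with the covariate. Mfsd2a, the lysolipid carrier that restrains transcytosis, ran from 5.30 to 7.02 RPKM with a median of 6.75 in toxicant libraries, against 8.54, 5.32, 6.43, 6.67 and 5.67 RPKM in control libraries. Control 1 was highest and toxicant 2 lowest, and the log2 fold change was 0.015 ± 0.11 (adjusted p = 0.928 by limma), or 0.17 with the covariate.

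**Figure D3:**
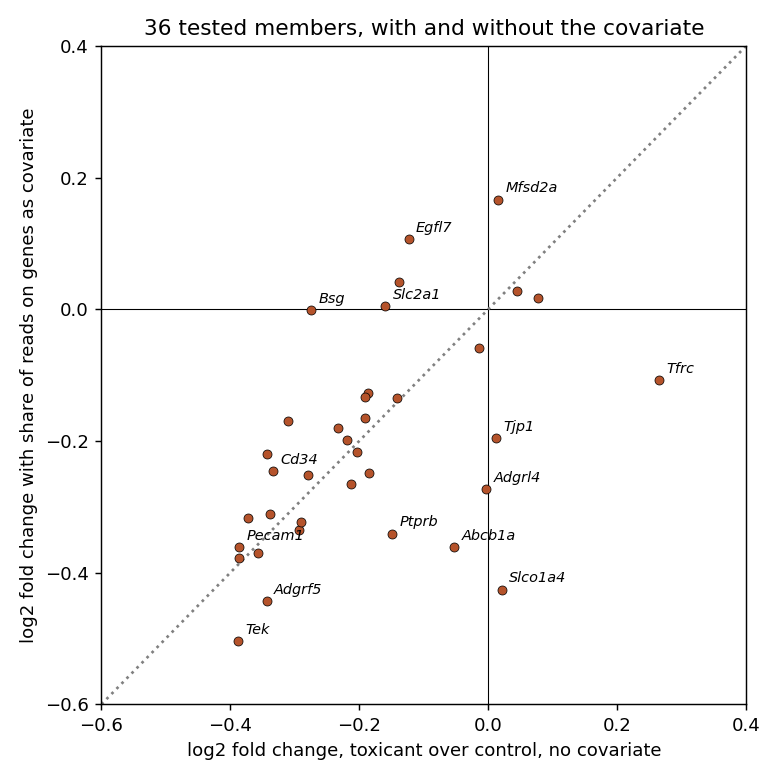
Log2 fold change of each of the 36 tested genes, toxicant over control, without a covariate (horizontal) and with each library's gene share as a covariate (vertical), where the dotted line marks equal values. Slco1a4, Abcb1a, Adgrl4, Tjp1, Ptprb and Tfrc lie well below the dotted line, and Bsg, Slc2a1, Egfl7 and Mfsd2a well above it.

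All 6 surface glycoprotein genes had negative log2 fold changes (70.0% of all tested genes did), with a median of -0.31. At an unadjusted p under 0.05, 4 were lower, where 17.0% of all genes were. Cd34, a sialomucin of endothelium, ran from 2.86 to 3.79 RPKM with a median of 3.23 in toxicant libraries, against 4.65, 4.07, 4.21, 4.19 and 4.16 RPKM in control libraries. Controls 2, 3, 4-5 and 6 lay close together with control 1 above them, and every toxicant library was lower, with a log2 fold change of -0.33 ± 0.076 (SE, adjusted p = 0.166 by limma). With gene share as a covariate the log2 fold change of Cd34 was -0.25. Podxl, a related sialomucin also made by neurons, spanned 2.95 to 3.48 RPKM with a median of 3.15 in toxicant libraries, against 4.65, 3.66, 4.64, 3.52 and 4.42 RPKM in control libraries. Control 2 and control 4-5 lay just above the highest toxicant library and the other controls well above it, and the log2 fold change was -0.34 ± 0.084 (adjusted p = 0.172 by limma), or -0.22 with the covariate. Ly6c1, a lipid-anchored antigen of brain endothelium, ran from 8.08 to 9.02 RPKM with a median of 8.38 in toxicant libraries, against 11.6, 10.6, 10.5, 13.3 and 9.58 RPKM in control libraries. All 6 toxicant libraries lay within a narrow range below the lowest control, and the log2 fold change was -0.36 ± 0.083 (adjusted p = 0.169 by limma), or -0.37 with the covariate. Its near copy Ly6c2 shares 14.7% of the stretches of 75 bases in Ly6c1 transcripts and was at most 0.0810 RPKM in toxicant and 0.0874 RPKM in control libraries. Ly6a, the neighbouring antigen Sca-1, spanned 5.23 to 6.61 RPKM with a median of 5.63 in toxicant libraries, against 7.30, 6.57, 7.28, 8.23 and 6.02 RPKM in control libraries. Toxicant 5 and toxicant 6 reached the lower controls, and the log2 fold change was -0.28 ± 0.089 (adjusted p = 0.207 by limma). Itm2a, a membrane protein of vascular cells, was at 14.8 ± 1.17 RPKM in toxicant and 16.9 ± 2.47 RPKM in control libraries (SD), with a log2 fold change of -0.18 ± 0.097, and the sialomucin Emcn was at 0.457 ± 0.0922 RPKM in toxicant and 0.555 ± 0.0885 RPKM in control libraries, with one of -0.14 ± 0.099.

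Of the secreted and enzyme genes, Nos3 and Vwf were lower at an unadjusted p under 0.05, where 17.0% of all genes were, and Egfl7 was not. Nos3, the endothelial nitric oxide synthase, ran from 1.32 to 1.59 RPKM with a median of 1.44 in toxicant libraries, against 1.89, 1.93, 1.74, 1.57 and 1.58 RPKM in control libraries. Only toxicant 3 reached the lowest controls, and the log2 fold change was -0.20 ± 0.073 (SE, adjusted p = 0.221 by limma). Exons of the antisense genes Gm15587 and Atg9b cover 25.2% and 7.12% of the exon bases of Nos3. Vwf, the clotting factor stored by endothelium of larger vessels, spanned 0.458 to 0.599 RPKM with a median of 0.521 in toxicant libraries, against 0.697, 0.603, 0.639, 0.811 and 0.593 RPKM in control libraries. Here 5 of 6 toxicant libraries lay below the lowest control, and the log2 fold change was -0.19 ± 0.083 (adjusted p = 0.239 by limma). Egfl7, a matrix protein whose gene hosts the microRNA gene Mir126a, ran from 4.40 to 5.69 RPKM with a median of 5.03 in toxicant libraries, against 6.83, 4.38, 6.61, 4.25 and 5.68 RPKM in control libraries. Control 2 and control 4-5 were the 2 lowest of all libraries, and the log2 fold change of -0.12 ± 0.12 (adjusted p = 0.482 by limma) was 0.11 with gene share as a covariate.

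Control libraries differed among themselves, in part with the GC content of the transcript. Control 2 and control 4-5, which had the lowest gene shares among controls, were the 2 highest controls in 10 of the 19 tested genes below the all-gene median of 50.4% GC, among them Tfrc, Slco1a4, Adgrl4, Abcb1a, Tjp1 and Ptprb, and in 0 of the 17 above it. Control 2 was the lowest control in 7 of the 17 genes above that median, among them Bsg, Slc2a1 and Cldn5, and in 1 of the 19 below it, Cd34. Exceptions occurred on both sides. Control 2 was the highest control for Erg, Sox17 and Nos3, which lie above the median, and control 3 was the highest for Slco1c1 and Emcn, which lie below it. With each library's GC trend removed the median log2 fold change of the 36 genes was -0.11, against -0.019 for all genes. Then 13 of the 36 were lower at an unadjusted p under 0.05, where 8.14% of all genes were, and 1 did not overlap, where 0.919% of all genes did not. The part of library composition in the group difference was not tested beyond these values.

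**Figure D4:**
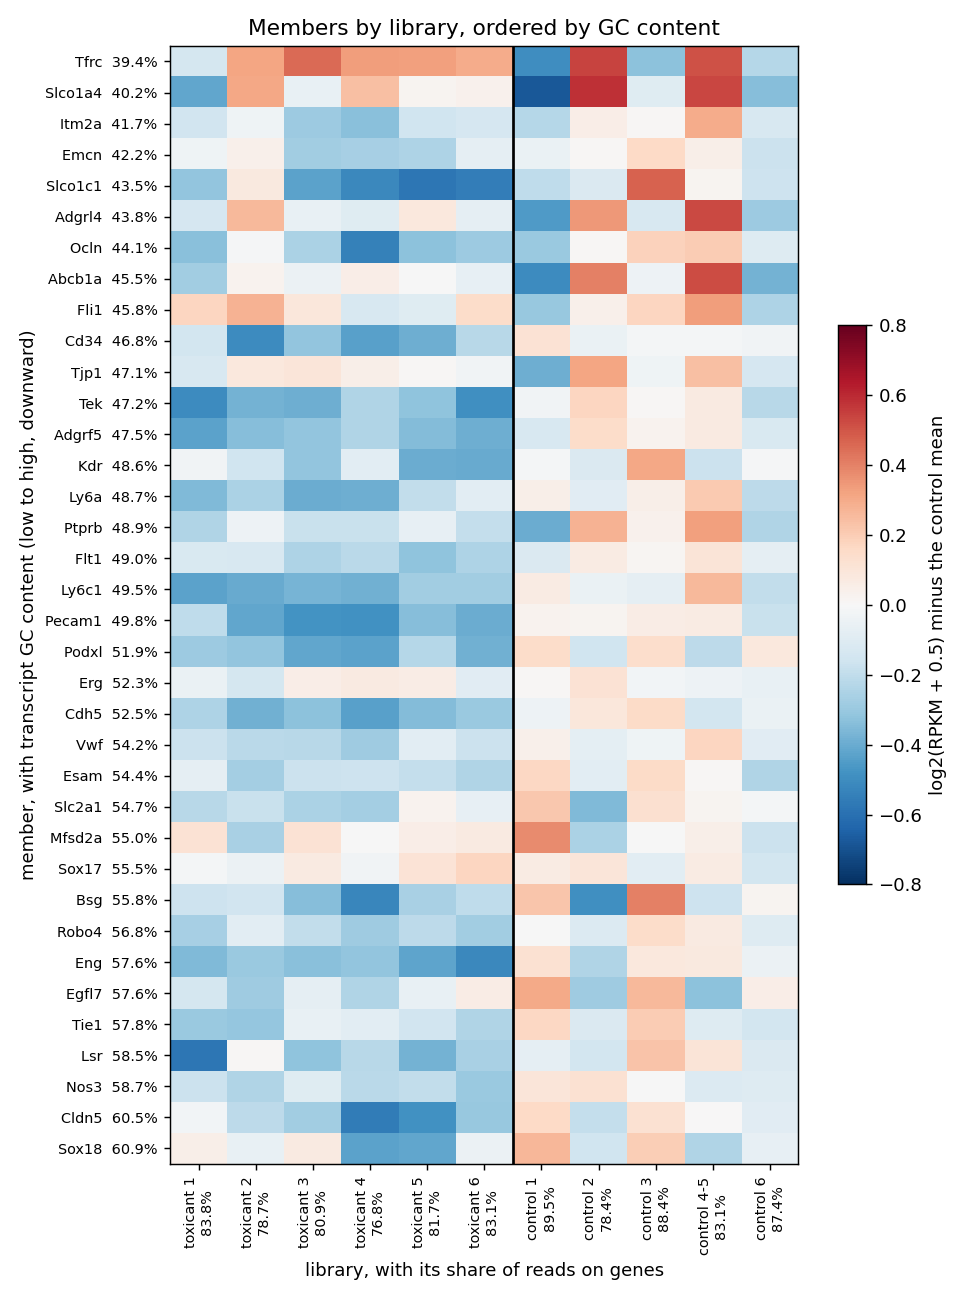
Log2(RPKM + 0.5) minus the control mean of the 36 tested genes (rows, from low to high transcript GC content, printed beside the symbol) in each library (columns, with its share of reads on genes), toxicant left of control. Tek, Adgrf5, Ly6c1, Pecam1, Cdh5 and Eng are blue in all 6 toxicant columns, and Tfrc, Slco1a4, Adgrl4 and Abcb1a are red in control 2 and control 4-5.

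Upstream sequences are shown for Tek, Flt1, Eng and Cd34, which did not overlap between groups and have 1 listed start, and for Mfsd2a, whose groups overlapped. Each is the 250 bases before the gene's start (RefSeq, GRCm38.p6), 5′ to 3′ on the gene's strand. Capitals mark GGAAG, a longer form of the GGAA core that ETS factors such as Erg and Fli1 bind, or its reverse complement CTTCC. The shorter GGAA, which also occurs before Tek on the other strand and before Mfsd2a on both strands, was not marked or counted.
Tek, chr4:94739039-94739288, plus strand: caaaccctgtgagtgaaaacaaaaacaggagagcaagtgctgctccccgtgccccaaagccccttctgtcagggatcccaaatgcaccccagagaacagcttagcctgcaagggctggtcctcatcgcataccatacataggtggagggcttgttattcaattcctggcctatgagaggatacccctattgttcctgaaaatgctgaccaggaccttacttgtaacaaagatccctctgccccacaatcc
Flt1, chr5:147726012-147726261, minus strand: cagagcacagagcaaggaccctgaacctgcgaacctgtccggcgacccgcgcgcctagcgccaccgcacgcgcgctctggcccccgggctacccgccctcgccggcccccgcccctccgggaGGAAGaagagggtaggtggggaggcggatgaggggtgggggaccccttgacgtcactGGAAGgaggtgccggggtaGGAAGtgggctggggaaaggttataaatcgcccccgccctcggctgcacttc
Eng, chr2:32646345-32646594, plus strand: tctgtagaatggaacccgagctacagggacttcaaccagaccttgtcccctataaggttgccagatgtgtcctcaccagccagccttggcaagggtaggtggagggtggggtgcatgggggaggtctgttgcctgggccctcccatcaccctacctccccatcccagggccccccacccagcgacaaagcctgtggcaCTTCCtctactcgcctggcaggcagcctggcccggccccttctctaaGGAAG
Cd34, chr1:194938571-194938820, plus strand: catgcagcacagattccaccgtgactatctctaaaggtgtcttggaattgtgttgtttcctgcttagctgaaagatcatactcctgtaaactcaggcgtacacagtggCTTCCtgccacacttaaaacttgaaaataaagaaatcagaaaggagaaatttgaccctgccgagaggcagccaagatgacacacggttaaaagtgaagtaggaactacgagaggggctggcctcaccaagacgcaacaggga
Mfsd2a, chr4:122961189-122961438, minus strand: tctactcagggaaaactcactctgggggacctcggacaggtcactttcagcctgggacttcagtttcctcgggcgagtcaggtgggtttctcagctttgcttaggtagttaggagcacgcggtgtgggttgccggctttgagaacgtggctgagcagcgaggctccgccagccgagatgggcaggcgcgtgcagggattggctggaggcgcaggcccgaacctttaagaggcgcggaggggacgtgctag
GGAAG on either strand occurred 0 times before Tek, 3 times before Flt1, 2 times before Eng, 1 time before Cd34 and 0 times before Mfsd2a. Promoters were found for 24 of the 37 genes, 32 starts in all. Of these, 23 (71.9%) held GGAAG, against 64.1% of all 32851 listed promoters of the same length. The KLF core CACCC was in 21 (65.6%) against 52.0%, and the SOX core ACAAT in 6 (18.8%) against 27.7%, each searched on both strands. A match is a string of letters and not a bound site.

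Other genes of vascular signalling and the barrier were taken from a list of 58 genes, of which 49 were tested. None of the 49 passed limma at an adjusted p under 0.05, 14 were lower at an unadjusted p under 0.05 (17.0% of all genes were) and 0 were higher. Their median log2 fold change was -0.16, and 28 of the 49 lay below the all-gene median. Positive values were seen for 14, up to 0.28 for Bmpr2. With the GC trend removed their median was -0.035, against -0.019 for all genes. After median-ratio scaling it was -0.055, against 0.0014. The genes named next are among the 6 with the smallest unadjusted p. Klf2, a transcription factor induced by blood flow, was at 3.80 ± 0.697 RPKM in toxicant and 5.71 ± 0.924 RPKM in control libraries (SD, n = 6 and n = 5), a log2 fold change of -0.53 ± 0.13 (adjusted p = 0.170 by limma). Tgfbr2, a TGF-beta receptor, was at 1.13 ± 0.140 RPKM in toxicant and 1.64 ± 0.243 RPKM in control libraries (-0.38 ± 0.095), and Acvrl1, which signals with Eng, was at 1.26 ± 0.110 RPKM in toxicant and 1.63 ± 0.169 RPKM in control libraries (-0.28 ± 0.079). S1pr1, a receptor for sphingosine phosphate, was at 25.0 ± 1.54 RPKM in toxicant and 29.6 ± 1.36 RPKM in control libraries (-0.24 ± 0.070), with no overlap between the groups. Notch1, a Notch receptor of vessels and other brain cells, was at 1.84 ± 0.159 RPKM in toxicant and 2.29 ± 0.249 RPKM in control libraries (-0.25 ± 0.080).

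Markers of other cells were followed in the same libraries. None of them passed limma at an adjusted p under 0.05, and the counts of lower markers below are at an unadjusted p under 0.05, where 17.0% of all genes were lower. Of 12 tested mural cell markers 5 were lower, and the 13 listed summed to 35.5 to 43.2 RPKM in toxicant and 42.4 to 47.8 RPKM in control libraries. The 4 tested red cell genes were all lower, and the 5 listed summed to 70.9 to 101.6 RPKM in toxicant and 97.1 to 143 RPKM in control libraries. Microglial markers (3 of 6 lower) summed to 78.8 to 98.8 RPKM in toxicant and 91.7 to 129 RPKM in control libraries. Oligodendrocyte markers (5 of 6 lower) summed to 358 to 502 RPKM in toxicant and 513 to 584 RPKM in control libraries, the one of these sums without overlap. Astrocyte markers (1 of 6 lower) summed to 241 to 273 RPKM in toxicant and 232 to 300.5 RPKM in control libraries. Choroid plexus markers (0 of 11 lower) summed to 28.2 to 1952 RPKM in toxicant and 34.0 to 3059 RPKM in control libraries, with toxicant 2 and control 3 the highest of their groups. With their level as a covariate 16 of the 36 endothelial and barrier genes were lower at an unadjusted p under 0.05, against 12.2% of all genes. Fibroblast markers (0 of 5 tested lower and 1, Dcn, higher) summed to 9.86 to 26.6 RPKM in toxicant and 9.76 to 32.0 RPKM in control libraries. Of the 6 neuron markers 0 were lower and 1 (Gad2) was higher, where 3.33% of all genes were higher. The 5 nuclear-retained RNAs (0 lower and 1 higher, where 3.33% of all genes were higher) summed to 330 to 794 RPKM in toxicant and 132 to 849 RPKM in control libraries. No marker in these lists was at 0 in every library. The part of these cells and RNAs in the endothelial values was otherwise not tested.

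Positions in GRCm38 (GENCODE M21, looked up by Ensembl ID) are chromosome 11 from 106654217 to 106750628 for Pecam1, chromosome 8 from 104101625 to 104144511 for Cdh5, chromosome 4 from 94739289 to 94874976 for Tek, chromosome 2 from 32646595 to 32682669 for Eng, chromosome 1 from 194938819 to 194961279 for Cd34 and chromosome 16 from 18776847 to 18778262 for Cldn5. Flt1 and Kdr both lie on chromosome 5 and Ly6c1 and Ly6a both on chromosome 15, while the 37 genes as a whole are spread over 16 chromosomes. The values are for whole genes, exons combined, and the authors' build is not given in the sources used here.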

How the data were processed

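The authors deposited 1 RPKM value per gene and library (41743 genes, 12 libraries), per the file headers. The sources used here do not name an aligner, a counting program, a build or an annotation. Columns were matched to samples through the code in each sample's description, and every column was matched. Values of a library, multiplied by the summed exon length in GENCODE M21, were whole multiples of 1 read within 0.05 reads for 98.3% to 98.4% of values above 0, which gave the reads and the share of them on genes (gene share). The 13493 genes that averaged 0.5 RPKM or more over 11 libraries were analysed as log2(RPKM + 0.5), a scale that understates the change of low genes. Testing used limma 3.58.1 under R 4.3.3 (lmFit, eBayes with a trend, two-sided, no covariate) with Benjamini-Hochberg adjustment over all of them and a threshold of 0.05. The fit was tested on simulated data. Alternatives were pseudocounts of 0.1 and 1, no filter, a filter at 1 RPKM, median-ratio and quantile scaling, the 12 libraries, gene share or the choroid plexus level as a covariate, removal of GC trends, the replicate number as a block, no variance trend, and leaving out each library. The 37 genes, the lists and the alternatives were chosen with earlier results of these data known, so counts are descriptions. Library values are given for the 3 genes of each role with the smallest unadjusted p, for every tested gene with a positive log2 fold change and for Cldn5, Slc2a1, Abcb1a, Ly6c1 and Ly6a, and of the other vascular genes for the 6 with the smallest unadjusted p, of which 1 is not reported here. The others are given by mean and SD. The labels say that the animals differ, but name no cage, dissection or sequencing batch.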

Additional observations from a re-analysis of the deposited data

Results flagged for a closer look

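In 5 of the 72 groups of values examined (36 genes in toxicant and in control libraries), 1 library lay apart from the rest of its group by Dixon's test, which flags about 1 in 20 groups by chance. In toxicant libraries, Abcb1a was lowest in toxicant 1 at 2.39 RPKM, Tfrc lowest in toxicant 1 at 9.03 RPKM and Mfsd2a lowest in toxicant 2 at 5.30 RPKM. In control libraries, Pecam1 was lowest in control 6 at 1.47 RPKM and Cd34 highest in control 1 at 4.65 RPKM. Toxicant 1 had the highest share of reads on genes of its group (83.8%) and control 1 that of all libraries (89.5%).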

How the results depend on the processing

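Of 23 alternatives, 26 of the 36 tested genes kept the sign of their log2 fold change under all, and 10 did not. No gene of the 36 passed an adjusted p under 0.05 except without control 2, where 16 did and 36.6% of all genes did. Leaving out single libraries thus gave 0 to 16 calls among the 36. It gave 0 to 17 among the 49 other vascular genes (0 with all libraries), the 17 also without control 2. At an unadjusted p under 0.05, 0 to 1 of the 36 were higher, the 1 without control 2, where 12.8% of all genes were higher. With all libraries 18 were lower at an unadjusted p under 0.05, against 17.0% of all genes, and 9 did not overlap, against 2.03%. These became 8, against 5.14%, and 2, against 0.697%, after median-ratio scaling. After quantile normalization 2 did not overlap, against 1.10% of all genes, and with the GC trend removed 1 did not, against 0.919%. The cause was not tested. Counts without overlap are not defined for the covariates, the block and the variance models. The difference of the median of the 36 from the all-gene median, -0.084, ran from -0.18 to -0.063 over all alternatives.

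Signs turned for Tjp1 with the 12 libraries as deposited (-0.029) and with gene share as a covariate (-0.20), and for Slco1a4 under these 2 settings (-0.068 and -0.43) and with the GC trend removed (-0.22). With that covariate and with the GC trend removed they turned for Tfrc (-0.11 and -0.00063), Slc2a1 (0.0052 and 0.0044), Sox18 (0.041 and 0.0071) and Egfl7 (0.11 and 0.035). Median-ratio scaling turned Adgrl4 (0.092), Erg (0.068) and Abcb1a (0.058). Adgrl4 also turned with a pseudocount of 0.1 (0.0082) and with the choroid plexus level as a covariate (0.045), which turned Mfsd2a (-0.015), and Erg with the GC trend removed (0.14). Without single libraries the log2 fold change ran from -0.086 to 0.090 for Tjp1, -0.12 to 0.13 for Adgrl4, -0.033 to 0.014 for Erg, -0.15 to 0.17 for Slco1a4, -0.18 to 0.078 for Abcb1a and -0.049 to 0.11 for Mfsd2a.

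The replicate number is shared by label only. Same-numbered libraries had correlations of their deviations from -0.30 to 0.62, and 2 of 6 toxicant libraries correlated best with the control of their number. With the replicate number as a block 16 of the 36 were lower at an unadjusted p under 0.05 and 0 passed the adjusted p, the median minus the all-gene median was -0.081, and over all genes 3600 were lower at an unadjusted p under 0.05. Toxicant 5 has no partner of its number after controls 4 and 5 were merged and drops out of this fit, so the fit to set beside it is the one without toxicant 5 and without the block, where 17 of the 36 and 1814 of all genes were lower. Depth was lowest for Icam2 (23.5 reads per library) and Emcn (72.8 reads per library).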
